A study of Mus musculus with 4 samples.

Results

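Foxp3-negative alpha-beta T cells, the conventional Cd4 and Cd8 T cells of the tissue, were picked out of CD45+ single-cell libraries of mouse hindpaws by the transcripts detected in each barcode. A barcode was kept with at least 200 detected genes and at most 10% mitochondrial UMIs, where a UMI (unique molecular identifier) stands for 1 captured transcript. It then had to carry at least 1 UMI of Trac, the constant region of the T cell receptor alpha chain, at least 1 UMI of the CD3 chains Cd3e and Cd3g combined, and at least 1 UMI of the coreceptors Cd4, Cd8a and Cd8b1 combined. It could hold no UMI of Foxp3, which marks regulatory T cells, none of Trdc, the constant region of the delta chain, none of Fermt2 or Col27a1, which mark dendritic epidermal T cells, and fewer than 5 UMIs in all of the complement genes C1qa, C1qb and C1qc. Of 30793 deposited barcodes 27800 were kept, and 865 of those met all 7 criteria. The levels of these genes chose the cells and are given as a description only.

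The animals were male mice carrying 2 copies of the db mutation of the leptin receptor gene Lepr (Lepr db/db, called DB here), a model of obesity and type 2 diabetes, and their Lepr WT/WT littermates (WT), on the C57BLKS/J background. Both hindpaws were digested with collagenase, CD45+ cells were sorted, and each library pooled 2 to 3 mice. Mice were 12 or 21 weeks old, ages that come from the methods and not from the sample labels. There was 1 library for each condition, 12-week-WT (labelled young wild-type), 12-week-DB (young diabetes), 21-week-WT (aged wild-type) and 21-week-DB (aged diabetes), and lists of 4 values below keep this order. Differences between conditions therefore have no replicate check and were given no p-value. All the intervals on levels and shares below cover counting error only. The libraries held 47851794, 57025899, 69626521 and 54989592 UMIs, respectively, and the 865 cells gave 724147, 1431766, 2682824 and 1685191 UMIs. The matrices of both 12-week libraries name Cell Ranger 5.0.0 and those of both 21-week libraries name 6.0.0, so software version and age cannot be told apart. Lepr itself had 0 UMIs in the selected cells of every library, which allows a level of up to 4.14, 2.10, 1.12 and 1.78 CPM (UMIs of a gene scaled to the total UMIs of its population), and the genotype could not be read from these cells.

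Alpha-beta T cells recognise peptides held in MHC molecules. CD4+ helper cells read MHC class II and act largely through cytokines and through costimulatory ligands such as CD40L, and CD8+ cells read MHC class I and kill through perforin and granzymes. Helper cells are commonly grouped by their cytokines into type 1 (interferon-gamma), type 2 (IL-4, IL-5 and IL-13) and type 17 (IL-17A, IL-17F and IL-22) cells. In mouse skin they share the dermis with regulatory T cells and with gamma-delta T cells, many of which make IL-17A, while the gamma-delta dendritic epidermal T cells occupy the epidermis.

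The selected cells were 90 of 5271 kept barcodes in 12-week-WT (1.71%, exact 95% interval 1.38 to 2.09), 191 of 6552 in 12-week-DB (2.92%, 2.52 to 3.35), 341 of 7270 in 21-week-WT (4.69%, 4.22 to 5.20) and 243 of 8707 in 21-week-DB (2.79%, 2.46 to 3.16). The share was lowest in 12-week-WT and highest in 21-week-WT, and the DB libraries lay between them with overlapping intervals. The share in DB over that in WT was thus 0.77 on the log2 scale at 12 weeks (0.40 to 1.15) and -0.75 at 21 weeks (-0.99 to -0.51). A share of a sorted suspension depends on every other cell in it, and with 1 pool for each condition the spread between mice is unknown. Foxp3-positive cells that met the other criteria numbered 34, 57, 87 and 113 (0.645, 0.870, 1.20 and 1.30% of kept barcodes), and at 21 weeks their intervals overlapped between WT and DB.

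The Cd4 part (at least 1 UMI of Cd4, none of Cd8a or Cd8b1) held 60, 128, 272 and 163 cells, or 66.7, 67.0, 79.8 and 67.1% of the selected cells. The Cd8b1 part (at least 1 UMI of Cd8b1, none of Cd4) held 23, 42, 58 and 71 cells, or 25.6, 21.99, 17.01 and 29.2%. The 21-week-WT library thus had the highest Cd4 share (75.1 to 83.9) and the lowest Cd8b1 share (13.2 to 21.4), and the intervals of both were clear of those of 21-week-DB (60.8 to 73.0 and 23.6 to 35.4). After thinning to 2000 UMIs and selecting again the intervals of the same 2 libraries overlapped, at 78.0% (69.4 to 85.1) against 71.2% (58.7 to 81.7) for Cd4 and 16.1% (9.98 to 24.0) against 19.7% (10.9 to 31.3) for Cd8b1. The remaining 48 cells were 2, 6, 6 and 4 with Cd4 beside Cd8a or Cd8b1 and 5, 15, 5 and 5 with Cd8a alone.

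**Figure D1:**
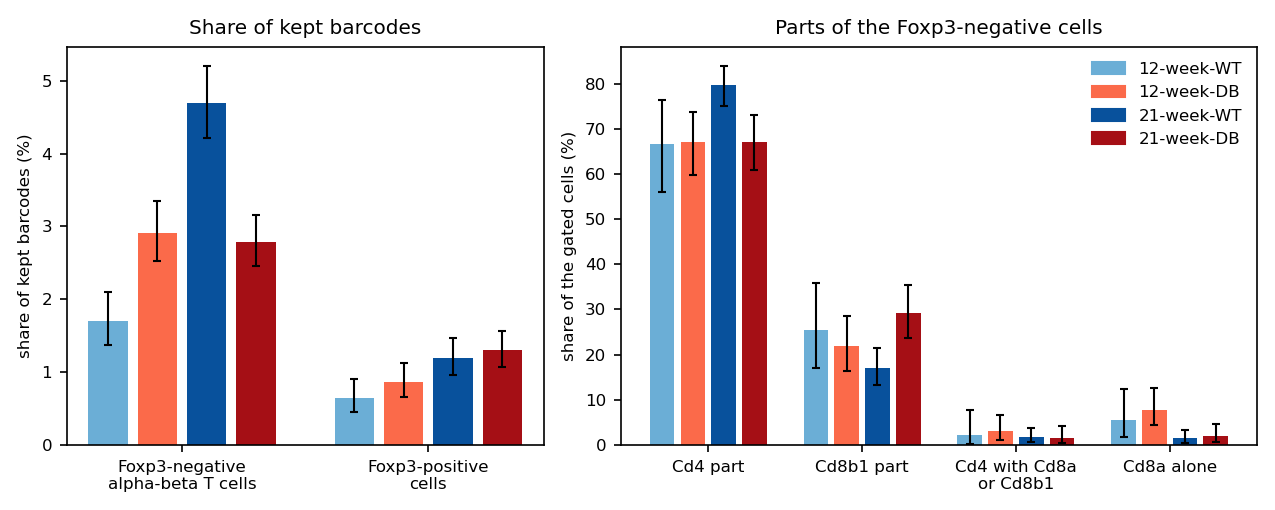
Left, cells as a percentage of kept barcodes in each library. Right, parts of the Foxp3-negative cells as a percentage of those cells. Bars are 1 library each and error bars are exact 95% binomial intervals (counting error only). The Foxp3-negative share is highest in 21-week-WT at 4.69% and the Cd4 part is largest there at 79.8%.

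The criteria sit close to the detection limit. Trac was at its minimum of 1 UMI in 17, 43, 88 and 84 of the selected cells, and 107, 195, 225 and 327 further barcodes met every criterion but the coreceptor UMI. Foxp3 alone kept out 34, 57, 87 and 113 barcodes, of which 6, 16, 26 and 37 had just 1 Foxp3 UMI. Trdc alone kept out 6, 18, 38 and 25 barcodes, of which 3, 11, 25 and 16 had 1 UMI. How many cells that express Foxp3 but gave no Foxp3 UMI remain among the selected ones cannot be read from the counts.

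Markers were then read that the selection did not use. Cd28, the receptor for the first costimulatory signal, was seen in 71 of 90 (78.9%), 147 of 191 (77.0%), 267 of 341 (78.3%) and 194 of 243 (79.8%) cells, and Cd40lg, which encodes the helper ligand CD40L, in 43.3, 36.1, 41.9 and 43.6%. Both shares were nearly level across the 4 libraries, at median depths of 6099.5, 5862, 6082 and 6431 UMIs for a cell. Barcodes high in C1q, with at least 20 C1q UMIs and no CD3 UMI, gave 2.89 to 8.10% for Cd28 and 0 to 0.263% for Cd40lg at median depths of 9197, 10741, 10906 and 9484 UMIs. Some genes of neighbouring types were scarce. The gamma-delta gene Trdv4 had a UMI in 0, 2.09, 0.880 and 1.65% of cells. The natural killer receptor Ncr1 had one in 1.11, 0.524, 0.880 and 0%, and the B cell gene Cd79a in 2.22, 0.524, 0.880 and 0.412%. Other markers of neighbouring types were not scarce. Ccl5, Ly6c2 and Txk, also used for natural killer cells, averaged 534, 166 and 135 CPM over the 4 libraries. Ctla2a and Gata3, used for type 2 innate lymphoid cells, averaged 747 and 301 CPM. The macrophage gene Pf4 had a UMI in 42.2, 37.2, 13.5 and 16.46% of cells. Of the macrophage list 7 markers are outside the selection rule. They were all detected in each library and summed to 871, 1452, 1000.1 and 370 CPM, led by Lyz2 at 388, 794, 487 and 134 CPM. The 9 gamma-delta markers other than Trdc, which the rule set at 0, summed to 164, 137, 85.4 and 125 CPM, led by F2r, against 2164 to 2977 CPM in gamma-delta T cells. The part of these transcripts in the results was not tested.

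Marker transcripts of dendritic cells and MHC class II did run with the libraries, and their source was not tested. Of the dendritic cell and MHC class II marker list, 9 of 10, 10 of 10, 10 of 10 and 9 of 10 members were detected, with a summed level of 8936, 7943, 8805 and 529 CPM, and its most abundant gene, Cd74 (the MHC class II invariant chain), was at 3810, 3098, 3566 and 126 CPM. The 21-week-DB library stood far below the other 3. Nearly all of this came from 56 barcodes, 7, 17, 30 and 2 in turn, that held 20 or more UMIs of Cd74, H2-Aa, H2-Ab1 and H2-Eb1 together, and that carried 93.6, 95.4, 94.1 and 61.1% of those UMIs. Their median depth was 20103, 17960, 18227 and 6828 UMIs, against 5877, 5585.5, 5807 and 6431 in the other selected cells. They are called MHC class II-high below, and counts between conditions are given with and without them. No barcode was removed as a doublet. The scores of a doublet caller (Scrublet), cut at an imposed rate of 0.8% of barcodes for each 1000 in the library, marked 2, 17, 24 and 13 of the selected cells. The caller's own threshold marked 55, 74, 0 and 2 barcodes in the whole libraries and so gave no usable call at 21 weeks.

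The 21-week-DB library stood apart in other ways as well. Gm42418, a predicted gene that overlaps the ribosomal RNA locus, was at 67627, 44397, 85506 and 20561 CPM in the selected cells, mitochondrial transcripts were 4.19, 3.61, 4.37 and 2.997% of UMIs, and ribosomal protein transcripts were 21.3, 20.96, 20.4 and 31.5%. The gamma-delta T cells of the same libraries gave 77467, 50974, 95976 and 26965 CPM of Gm42418, in the same order of libraries. Its part in the differences between 21-week-DB and 21-week-WT was not tested. Kept barcodes shared between libraries numbered 5 to 146 for each pair, 146 of them between the 21-week libraries, and no barcode was a selected cell in both.

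The Cd8b1 and the Cd4 parts were compared within libraries, on UMIs summed over each part of each library (8 sums), with library as a block in edgeR's quasi-likelihood test and p-values adjusted by the method of Benjamini and Hochberg over 5894 genes. Coreceptor and other selection genes were left out of the test. With library as a block, its p-values measure how the difference between the parts within a library varied over the 4 libraries. These libraries are 4 different conditions and not replicates, so the p-values do not measure the spread between mice. Compared with the Cd4 part, 291 genes were higher (4.94% of genes tested) and 191 lower (3.24%) in the Cd8b1 part at an adjusted p under 0.05. These were 182 and 94 without 21-week-WT, 189 and 112 without 21-week-DB, 201 and 96 with DESeq2, 60 and 49 with no library block, and 54 and 31 of 472 genes tested after thinning to 2000 UMIs.

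Genes of the killer programme rose together in the Cd8b1 part. Of the type 1 and cytotoxic list 15 of 20 members were tested and 13 rose, none fell, and the median log2 difference was 2.19 against -0.01 over all genes. Ccl5, a chemokine stored by memory CD8 cells, was at 970, 2009, 2918 and 1634 CPM in the Cd8b1 part, and at 28.4, 33.7, 126 and 25.5 CPM in the Cd4 part. The ranges did not overlap, and the log2 difference was 5.44 ± 0.21 (SE; edgeR quasi-likelihood adjusted p = 1.01e-09). Prf1, which encodes the pore-forming protein perforin, was at 28.1, 21.5, 70.9 and 36.9 CPM against 0, 1.09, 5.61 and 0 (4.37 ± 0.49, edgeR adjusted p = 7.81e-05). Gzmb (granzyme B) was uneven, at 40.1, 6.15, 202 and 87.7 CPM against 16.55, 7.61, 14.9 and 22.7, and was lower in the Cd8b1 part of 12-week-DB although it passed the test (edgeR adjusted p = 0.000772). The lectin-like receptor Klrd1 (2.43 ± 0.19), the protease Ctsw (2.35 ± 0.19) and the chemokine Ccl4 (2.71 ± 0.36) rose in all 4 libraries. Ifng was at 541, 169, 326 and 193 CPM in the Cd8b1 part and at 28.4, 77.2, 142 and 70.9 CPM in the Cd4 part (1.91 ± 0.31, edgeR adjusted p = 0.00102), and 54.6% of the Ifng UMIs of the 12-week-WT selected cells lay in 1 cell.

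A second group that rose in the Cd8b1 part belongs to naive and circulating cells. Of 10 members tested 5 rose and none fell, among them the transcription factors Lef1, Klf2 and Satb1, and Dapl1. Lef1 was at 220, 154, 213 and 142 CPM against 96.9, 45.7, 29.0 and 32.1 (2.21 ± 0.24, edgeR adjusted p = 5.72e-05). It was higher in the Cd8b1 part of every library, with no overlap of the ranges. Satb1 was at 365, 434, 516 and 365 CPM against 191, 93.5, 80.3 and 147 (1.99 ± 0.23, edgeR adjusted p = 9.61e-05), again without overlap. Ccr7, a lymph node homing receptor, was higher in 2 of 4 libraries (1.22 ± 0.39, edgeR adjusted p = 0.0758), and Tcf7 in 3 (0.54 ± 0.17, edgeR adjusted p = 0.0649). Ly6c2 (4.05 ± 0.17), a surface antigen of memory CD8 cells, was at 513, 578, 481 and 295 CPM CPM against 26.5 to 40.2.

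Of 10 costimulatory and checkpoint receptors tested 4 were lower in the Cd8b1 part (Icos, Cd40lg, Ctla4 and Tnfrsf4) and 1, Cd27, higher. Tnfrsf4, which encodes the costimulatory receptor OX40, was at 4.01, 9.23, 28.8 and 38.6 CPM in the Cd8b1 part and at 137, 104, 149 and 250 CPM in the Cd4 part (-2.70 ± 0.26, edgeR adjusted p = 2.26e-05), and Tnfsf8, the ligand of CD30, at 62.0 to 83.1 against 253 to 437 CPM (-2.11 ± 0.17). Both were far apart in each library. Of 8 type 2 members tested 5 were lower in the Cd8b1 part and none higher: Gata3, the type 2 master regulator (-1.05 ± 0.13), the IL-33 receptor Il1rl1 (-1.92 ± 0.24), Ccr4, Areg (amphiregulin, a growth factor linked to repair) and Il9r. Of the regulatory T cell list 8 of 10 tested members were lower in the Cd8b1 part, with Ctla4 at 8.02 to 40.4 CPM against 135 to 210 (-2.44 ± 0.29). Hlf (-2.04 ± 0.29), the ligand Tnfsf11 (RANKL, -1.78 ± 0.26), Trat1 (-2.05 ± 0.23), Cpd (-1.97 ± 0.28) and the syndecan Sdc4 (-1.76 ± 0.21) were lower as well, with the histone gene Hist1h2ap (-1.86 ± 0.37). The glycolytic genes Pkm and Ldha were the only members of the leptin, insulin and glucose list to pass, 2 of 12 tested, and both were lower in the Cd8b1 part (-0.64 ± 0.12 and -0.47 ± 0.13).

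**Figure D2:**
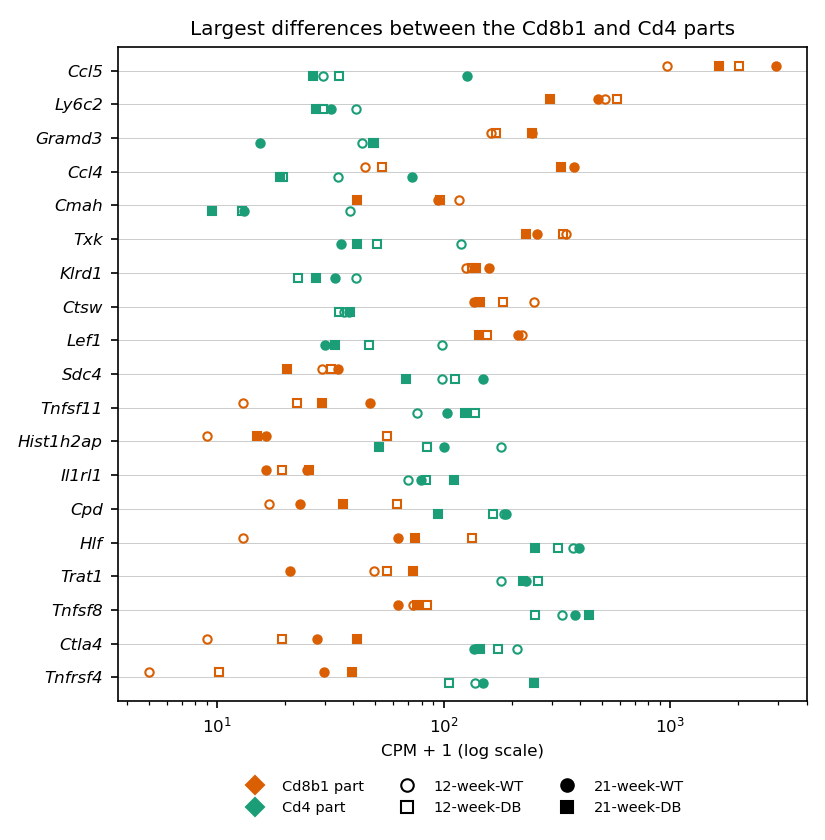
CPM + 1 on a log axis for named genes with the largest rises and falls between the Cd8b1 part (orange) and the Cd4 part (green); each symbol is 1 library. Ccl5 and Ly6c2 are separated furthest, and Tnfrsf4, Ctla4 and Tnfsf8 lie lower in the Cd8b1 part of all 4 libraries.

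The Cd4 part was next compared with Foxp3-positive Cd4 cells, its nearest neighbour (31, 51, 81 and 106 cells), in the same model over 7244 genes. Here 200 genes were higher in the Cd4 part (2.76%) and 224 lower (3.09%). The counts depended on the fit, at 105 and 156 without 12-week-DB, 87 and 113 with DESeq2, 37 and 58 with no library block, 58 and 63 with selection at 2 UMIs, and 1 and 17 of 552 genes tested after thinning to 2000 UMIs. Of the regulatory T cell list 12 of 14 members were tested, 9 were lower in the Cd4 part and none higher (median -1.76 against 0.00 over all genes). Ikzf2, the transcription factor Helios, was at 331, 241, 101 and 275 CPM in the Cd4 part and at 1347, 1542, 999 and 1570 CPM in the Foxp3-positive cells (-2.58 ± 0.15, edgeR adjusted p = 3.58e-09). Il10, the suppressive cytokine, was at 56.7, 56.5, 77.1 and 51.1 CPM against 224, 341, 187 and 346 (-2.05 ± 0.19, edgeR adjusted p = 8.92e-07). The levels of neither overlapped. Il10 had a UMI in 6.67, 3.91, 6.25 and 6.1% of Cd4-part cells. Barcodes high in C1q, which were deeper, gave 7.97, 3.65, 11.1 and 5.35%. Whether those barcodes express Il10 themselves was not tested, so their shares set no background level for Il10. The part of free RNA in the Il10 of the Cd4 part was not tested either. Itgb8, an integrin chain that activates TGF-beta, was at 7.47 to 14.1 CPM against 60.5 to 163 (-3.09 ± 0.23), and was followed by Gm28112 (-2.76 ± 0.32), Klrg1 (-2.66 ± 0.24), Tnfrsf9 (4-1BB, -2.64 ± 0.32) and Nrn1 (-2.46 ± 0.25).

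In the same test 2 of 9 naive and circulating members, Tcf7 and Lef1, rose in the Cd4 part and none fell (median 0.62 against 0.00 over all genes). Of 12 costimulatory and checkpoint receptors 4 rose and 6 fell (median -0.47), Cd40lg among the first and Ctla4 and Icos among the second. Tcf7, the transcription factor TCF1, was at 336, 251, 162 and 152 CPM in the Cd4 part and at 3.68, 33.1, 17.1 and 19.04 CPM in the Foxp3-positive cells (3.45 ± 0.25, edgeR adjusted p = 2.77e-08). Cd40lg was at 222, 124, 159 and 247 CPM against 18.4, 30.5, 27.6 and 35.1 (2.74 ± 0.20, edgeR adjusted p = 2.98e-08). Neither gene's ranges overlapped. Tnfsf8 (2.97 ± 0.16), Tnfsf11 (2.70 ± 0.24), the thymocyte signalling protein Themis (2.42 ± 0.25), the survival gene Bcl2 (2.31 ± 0.22) and Ramp3, a partner of the receptors for adrenomedullin and related peptides (2.23 ± 0.23), rose as well, as did the phosphatase Dusp10 (1.99 ± 0.25) and the tissue chemokine receptor Cxcr6 (1.82 ± 0.19). Of 10 type 1 and cytotoxic members 4 rose and 1, Gzmb, fell (-1.97 ± 0.36), and of 9 type 2 members 2 rose and 2 fell (median -0.05). Ifng was at 28.4, 77.2, 142 and 70.9 CPM against 3.68, 0, 17.1 and 1.46 (3.78 ± 0.35, edgeR adjusted p = 8.60e-07), Il5 rose by 3.32 ± 0.38 and Il13 by 0.91 ± 0.24 on the log2 scale. The type 2 members that fell were Areg (-1.22 ± 0.21) and Il1rl1 (-1.92 ± 0.14).

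A few results of this comparison touch other cell types. The mast cell protease Mcpt2 passed (edgeR adjusted p = 0.0144), but 93.6% of its UMIs in the selected cells of 12-week-WT lay in 1 cell, and DESeq2 gave an adjusted p of 0.798. Of the dendritic cell and MHC class II list 6 of 8 tested members were lower in the Cd4 part, Cd74 among them at 3823, 3511, 4124 and 182 CPM against 6836, 4529, 4947 and 842 (-0.79 ± 0.19). Without the MHC class II-high barcodes, which the levels of these genes define, 6 members were tested and none passed (Cd74 -0.42 ± 0.15, edgeR adjusted p = 0.0846).

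Against the gamma-delta T cells of the same libraries (330, 437, 764 and 1058 barcodes with UMIs of Trdc and CD3 and none of Trac), 933 of 10097 genes were higher (9.24%) and 845 lower (8.37%) in the Foxp3-negative alpha-beta cells. These were 607 and 623 without 12-week-DB, 388 and 427 with no library block, and 209 and 292 of 5387 genes tested after thinning. The receptors and ligands of costimulation marked the alpha-beta side: of 13 list members tested 10 rose and 1, Pdcd1, fell. Cd28 was at 425, 501, 400 and 439 CPM against 9.002, 15.7, 7.58 and 14.1 (5.34 ± 0.14, edgeR adjusted p = 2.31e-09), and Cd40lg at 173, 100, 139 and 186 CPM against 0.857 to 4.45 (5.68 ± 0.22). Each library showed the gap. Themis (5.97 ± 0.29) and the T cell receptor modulators Cd6 (5.62 ± 0.26) and Cd5 (5.14 ± 0.17) were among the largest rises, beside Tnfrsf4 (4.94 ± 0.15), Trat1 (4.64 ± 0.28), Ms4a4b (4.73 ± 0.16) and Ms4a6b (4.31 ± 0.14). Of the T cell receptor list 10 of 17 tested members rose and 3 fell, and the 3 were the signalling chain Cd247 (-1.75 ± 0.09), the kinase Zap70 (-0.66 ± 0.11) and Ptprcap.

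The cytokine programmes divided along the same line. Of 12 type 17 members 10 were lower in the alpha-beta cells and none higher: Il17a was at 8.30, 29.4, 51.9 and 3.57 CPM against 362, 255, 257 and 324 in gamma-delta cells (-3.49 ± 0.40, edgeR adjusted p = 0.000107), and the IL-23 receptor Il23r at 5.6001 to 8.39 against 117 to 134 (-4.12 ± 0.15). The alpha-beta level of Il17a was highest in 21-week-WT and lowest in 21-week-DB, and lay below that of the gamma-delta cells in all 4 libraries. Il22 was not separated (-0.98 ± 0.52, edgeR adjusted p = 0.246). Of 11 type 2 members 9 rose, with Il5 at 9.68, 25.9, 31.7 and 52.3 CPM against 1.29 to 5.45 (3.81 ± 0.40, edgeR adjusted p = 6.00e-05), and Areg fell (-1.004 ± 0.13). Of 17 type 1 and cytotoxic members 14 rose, Ifng (4.73 ± 0.26) and Ccl5 (4.27 ± 0.20) among them, and of 10 naive members 8 rose while the IL-7 receptor Il7r fell (-1.11 ± 0.12). Gamma-delta markers were lower without exception, 9 of 9 tested, led by Trdv4 (-7.79 ± 0.22), Sox13 (-6.92 ± 0.25), the scavenger receptor Cd163l1 (-6.26 ± 0.15) and Blk (-6.25 ± 0.27).

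**Figure D3:**
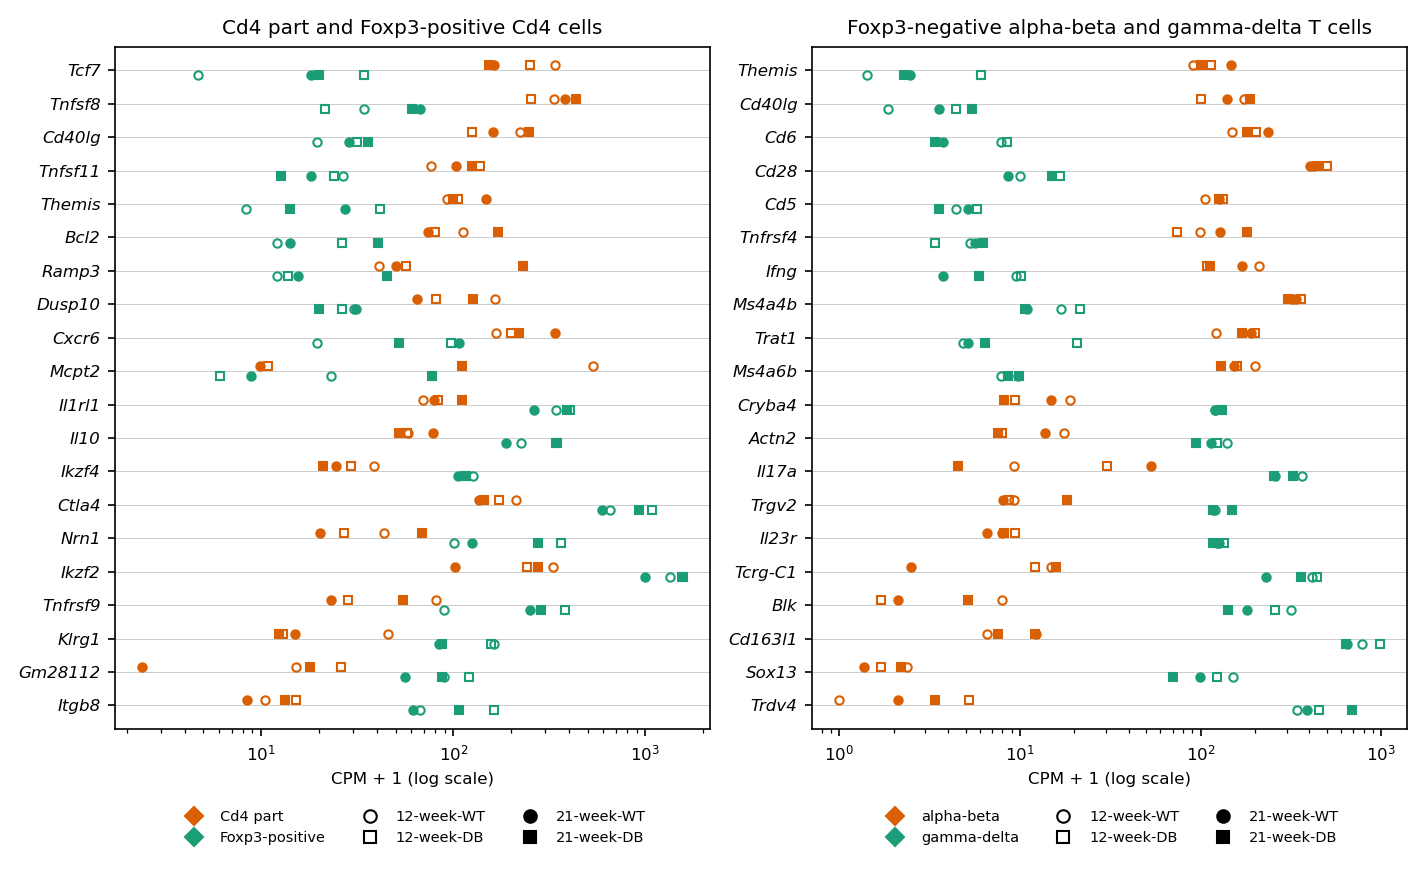
CPM + 1 on a log axis for the 10 largest rises and falls of the Cd4 part against Foxp3-positive Cd4 cells (left) and of the Foxp3-negative alpha-beta cells against gamma-delta T cells (right); each symbol is 1 library. Tcf7 and Cd40lg lie higher and Itgb8 and Ikzf2 lower in the Foxp3-negative cells of all 4 libraries, and Trdv4 and Cd163l1 mark the gamma-delta side.

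Cytokine transcripts were found in minorities of cells. In the Cd4 part Ifng had a UMI in 7 of 60 cells (11.7%) in 12-week-WT, 19 of 128 (14.8%) in 12-week-DB, 61 of 272 (22.4%, 17.6 to 27.9) in 21-week-WT and 14 of 163 (8.59%, 4.78 to 14.0) in 21-week-DB. The C1q-high barcodes, deeper than the Cd4-part cells with their medians of 5781.5, 5650.5, 5992.5 and 6118 UMIs, gave 0.526 to 0.908% for Ifng. Il13 was seen in 5, 14, 37 and 17 Cd4-part cells (8.33, 10.9, 13.6 and 10.4%, against 1.37 to 3.42% of C1q-high barcodes) and Il5 in 4, 8, 14 and 9. Ifng, Il13 and Il5 were thus above the level in C1q-high barcodes in every library, and among these 3 the intervals of the 21-week libraries separated for Ifng. Cells with both Ifng and Il17a numbered 0 in the Cd4 part of all 4 libraries, and cells with both Il5 and Il13 1, 4, 6 and 4.

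At 21 weeks cells with a type 17 cytokine UMI made up a smaller share of the Cd4 part in DB, and the intervals separated for Il22 but overlapped for Il17a and Il17f. Il22, which acts on keratinocytes, had a UMI in 5 of 60 (8.33%), 5 of 128 (3.91%), 32 of 272 (11.8%, 8.19 to 16.2) and 0 of 163 cells of the Cd4 part, the last allowing up to 2.24% by its exact interval. Il17a was seen in 2, 5, 13 and 1 cells (2.57 to 8.03% in 21-week-WT and 0.016 to 3.37% in 21-week-DB) and Il17f in 3, 1, 15 and 1 (3.12 to 8.93% and 0.016 to 3.37%). In the summed UMIs of all selected cells Il22 had 134 UMIs in 21-week-WT and 0 in 21-week-DB, Il17a had 139 and 6, and Il17f 98 and 1. With the same cells thinned to 2000 UMIs, shallower ones left out and none selected again, Il22 remained in 19 of 271 Cd4-part cells in 21-week-WT and in 0 of 161 in 21-week-DB. In gamma-delta T cells Il22 was present in 8.25% of 21-week-WT and 6.14% of 21-week-DB cells, and Il17a in 21.5 and 14.1%. The single Il17a cell of the 21-week-DB Cd4 part (0.613%) is no more than the 0.701% of C1q-high barcodes of that library, while the 13 of 21-week-WT (4.78%) lie above the 1.36% there. For Il22 the C1q-high share was 0.606% in 21-week-WT and 0.263% in 21-week-DB, and for Il17f 0.454 and 0.438%, so that the 21-week-WT shares of both lay above it and the 21-week-DB cells were too few to tell from it. In the Cd8b1 part Ifng was seen in 8 of 23, 13 of 42, 21 of 58 and 15 of 71 cells (34.8, 31.0, 36.2 and 21.1%), Il4 in none. Il17a was seen there in 1, 0, 0 and 3 cells, 0 of 58 in 21-week-WT against 3 of 71 in 21-week-DB (4.23%, 0.88 to 11.9), a direction opposite to that of the Cd4 part, and Il22 in 1, 1, 2 and 0.

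Receptor segments also differed between libraries. A variable segment of the beta chain (Trbv) was read in 17.8, 20.9, 19.1 and 18.9% of the selected cells. In the Cd4 part Trbv19 was found in 2 of 60 cells in 12-week-WT (3.33%), 3 of 128 in 12-week-DB (2.34%), 33 of 272 in 21-week-WT (12.1%, 8.5004 to 16.6) and 2 of 163 in 21-week-DB (1.23%, 0.149 to 4.36). Of cells with any Trbv UMI it made up 15.4, 10.0, 63.5 and 6.45%. The next most frequent segment of the 21-week-WT Cd4 part, Trbv12-2, was in 6 cells. In the Cd8b1 part of that library Trbv12-2 was in 6 of 58 cells (10.3%). Foxp3-positive cells of the same library had Trbv19 in 2 of 87 (2.30%), its Cd8b1 part in 1 of 58 (1.72%), its gamma-delta cells in 2 of 764 (0.262%) and its C1q-high barcodes in 0 of 1321. Trbv19 was singled out after its values were seen, and it was not tested.

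The 33 Trbv19 cells were not deeper than the other 239 Cd4-part cells of that library (median 5992 against 5993 UMIs), 3 of them were MHC class II-high, and of the 7 with a readable alpha chain segment at most 3 shared one. A common V segment does not make a clone, and the joined CDR3 was not read. Ccr6, the homing receptor of type 17 cells, had a UMI in 19 of the 33 (57.6%) and in 45 of the 239 (18.8%). Il17a was seen in 7 (21.2%) against 6 (2.51%), and Il17f in 6 (18.2%) against 9 (3.77%). Il22 was not concentrated there, with 4 (12.1%) against 28 (11.7%), and Ifng was in 5 (15.2%) against 56 (23.4%). The cell cycle genes Mki67 (397 against 143 CPM) and Top2a (280 against 158 CPM) were higher in these cells, which held 29.6 and 21.1% of the UMIs of the 2 genes in that Cd4 part.

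**Figure D4:**
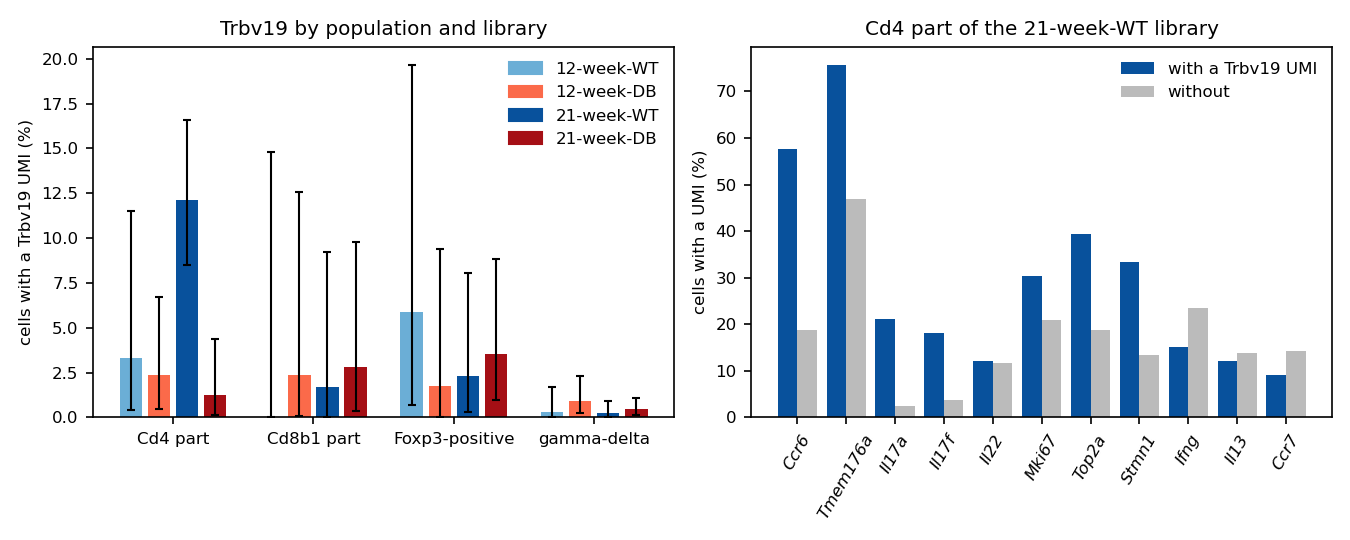
Left, percentage of cells with a Trbv19 UMI by population and library, with exact 95% binomial intervals. Right, percentage of cells with a UMI of type 17, cell cycle and other genes among the 33 Trbv19 cells and the 239 other cells of the 21-week-WT Cd4 part, given as a description with no test. Trbv19 reaches 12.1% in the Cd4 part of 21-week-WT alone, and Ccr6 is in 57.6% of those cells.

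Between genotypes, ratios of summed UMIs were read against a fixed size: a gene counted when it differed by more than 2-fold, and only genes reaching 100 CPM in one of the libraries, with 50 or more UMIs over the pair combined, were ranked. A gene that reached this floor in 1 library alone was ranked through its higher side, so counts that hold such genes are a description. At 21 weeks 41 of 1525 such genes were higher in DB (2.69%) and 74 lower (4.85%). Without the MHC class II-high barcodes these were 35 of 1541 (2.27%) and 67 (4.35%). At 12 weeks 16 of 1619 genes were higher in DB (0.988%) and 14 lower (0.865%), or 9 of 1634 (0.551%) and 11 (0.673%) without those barcodes. Of the 16 higher genes 4 had 50 or more UMIs in each library, and of the 14 lower genes 12. Of 1382 genes ranked at both ages 1, Mt1, was past 2-fold in the same direction at both. At both ages Mt1 reached the 100 CPM floor in DB alone, so the filter favoured a rise. Without the MHC class II-high barcodes Mt1 was not ranked at 12 weeks, and of 1393 genes 1, Ifitm2, was past 2-fold at both (1.72 and 1.34, against 0.45 and 0.88 with those barcodes).

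Proliferation genes were lower in 21-week-DB. Mki67 was at 66.3, 127, 159 and 29.7 CPM, and Top2a at 145, 177, 155 and 34.4 CPM. The lowest level of both was in 21-week-DB, with a log2 ratio to 21-week-WT of -2.42 (-2.87 to -1.99) for Mki67 and -2.18 (-2.60 to -1.78) for Top2a. With Stmn1 (-1.94, -2.26 to -1.64), 3 of the 4 ranked members of the proliferation list were past 2-fold lower, and the median of the 4 was -2.06 with or without the MHC class II-high barcodes. Hmgb2 was the other ranked member (-0.81). Of the 10 list members 4 were ranked. At 21 weeks Mki67 and Top2a reached the 100 CPM floor in WT alone, so the filter favoured a fall. Summed over all 10 members, the level was 934.9, 1381.5, 1489.5 and 556.0 CPM. Mki67 was detected in 20.8% of selected cells in 21-week-WT and 11.52% in 21-week-DB, and in 10.9 and 3.32% of the same cells thinned to 2000 UMIs. Mki67 had the same direction in gamma-delta T cells (-2.25) and Foxp3-positive cells (-2.60), but not in C1q-high barcodes (0.42). At 12 weeks 3 of the 4 list members were higher in DB (median 0.52) and none was past 2-fold, or 4 of 4 (median 0.93) with Mki67 past 2-fold (1.01) without the MHC class II-high barcodes. Of all ranked genes 40.0% were lower at that age (median 0.07), or 41.4% (median 0.06) without those barcodes. In the Cd8b1 part 4 of 4 were higher in 12-week-DB and 3 past 2-fold (median 2.33), and in the Cd4 part 2 of 4 (median -0.23). Over all ranked genes 57 of 1545 were past 2-fold higher in the Cd8b1 part (median 0.08). In the Cd4 part 25 of 1712 were (median 0.05), and 44.8% of ranked genes were lower.

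MHC class I and peptide loading genes, which supply the ligands of CD8 cells and respond to interferon, were lower in 21-week-DB for 9 of 9 ranked members, where 55.2% of all ranked genes were lower (median -0.53 against -0.06 over all ranked genes). Tap1, a subunit of the peptide transporter, was at 85.6, 76.8, 123 and 36.8 CPM (-1.74 at 21 weeks, -2.16 to -1.35). Tapbp was at 191, 168, 192 and 76.5 CPM (-1.32, -1.61 to -1.04), and the immunoproteasome subunit Psmb9 at 60.8, 84.5, 127 and 61.1 CPM (-1.06, -1.39 to -0.73). These 3 were past 2-fold, and without the MHC class II-high barcodes H2-K1 joined them (-1.01), with 9 of 10 ranked members lower. Of all genes ranked without those barcodes 59.2% were lower and 4.35% were past 2-fold lower. At 21 weeks Tap1, Tapbp and Psmb9 reached the 100 CPM floor in WT alone, so the filter favoured a fall for them. Of the 12 list members 9 were ranked among all selected cells. Summed over all 12 members, the level was 7299.6, 6550, 7575.2 and 5481.9 CPM. The light chain B2m was 0.53 lower on the log2 scale (-0.61 to -0.46). The direction was shared by gamma-delta T cells (Tap1 -0.82, Tapbp -1.31) and C1q-high barcodes (Tap1 -1.83, Tapbp -1.02). At 12 weeks no member was past 2-fold.

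The largest falls among ranked genes in 21-week-DB were of genes typical of antigen-presenting and myeloid cells: H2-DMb1, H2-Aa, Cd74, H2-Eb1, H2-Ab1, Tgfbi, H2-DMa, Alox5ap and Tyrobp, with the ribosomal RNA-linked Gm15564. Cd74 had a log2 ratio of -4.82 (-5.02 to -4.62) that shrank to -2.07 without the MHC class II-high barcodes, and was -1.77 in gamma-delta T cells and -2.46 in C1q-high barcodes. Lyz2 moved from -1.86 to -0.79 when those barcodes were left out. Whether these transcripts came from the T cells, from second cells in the droplet or from free RNA was not tested.

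Among genes of T cells themselves, Bhlhe40, a transcription factor needed for cytokine production, was at 236, 305, 456 and 157 CPM. It was highest in 21-week-WT and lowest in 21-week-DB, with a ratio of -1.54 (-1.74 to -1.35), and the glycolytic gene Pkm, at 319, 369, 417 and 183 CPM, followed (-1.19, -1.37 to -1.003). Il13 was at 16.6, 58.0, 89.5 and 32.6 CPM (-1.45 at 21 weeks, -1.90 to -1.03), with 34.6% of its 21-week-WT UMIs in 1 cell. The direction of Il13 was reversed in the gamma-delta cells, at 1.34. Of the T cell receptor list, without the 3 genes used for selection, 15 members were ranked and none was past 2-fold at either age, which is near the small share of all ranked genes that was.

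Other T cell genes were higher in 21-week-DB. Il7r, the receptor for the survival cytokine IL-7, was at 250, 270, 243 and 558 CPM and was detected in 56.7, 66.0, 63.3 and 84.8% of cells (1.20, 1.06 to 1.35). The rise was shared by Foxp3-positive cells, at 310 CPM in 21-week-WT and 711 in 21-week-DB. Gamma-delta T cells had Il7r at 537 and 986 CPM in the same libraries. Cd27 was at 82.9, 90.1, 50.7 and 114 CPM (1.17, 0.84 to 1.50), and 0.95 without the MHC class II-high barcodes. Ikzf2 was at 231, 212, 98.0 and 198 CPM, so that the 21-week-WT library was the low one (1.01, 0.77 to 1.25, and 0.83 without the MHC class II-high barcodes). The largest rises among ranked genes were the histone Hist1h2bc (2.68, 2.35 to 3.02), the protease inhibitor Ctla2b (2.03), Ramp3 (1.98), Mt1 (1.97), Jmy (1.73) and the hypoxia-inducible Hilpda (1.73), with Gm12840, Tceal9 and the noncoding Snhg8 and Snhg15. Ramp3 was at 34.5, 48.2, 54.0 and 213 CPM and was found in 15.5% of 21-week-WT and 39.5% of 21-week-DB cells. Cd27, Ikzf2, Ramp3 and Mt1 reached the 100 CPM floor at 21 weeks in DB alone, so the filter favoured a rise for them. In gamma-delta T cells Hist1h2bc, Ramp3 and Hilpda were also higher in 21-week-DB, at 1.48, 1.13 and 1.66. Fkbp5, a glucocorticoid-induced gene, was 1.07 higher (0.73 to 1.41).

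At 12 weeks 22 of 22 ranked immediate early and heat shock genes were lower in DB, with a median of -0.41 against 0.07 over all genes, though 2 were past 2-fold. Of all ranked genes 40.0% were lower, or 51.7% with TMM-scaled CPM. Jun was at 558, 208, 374 and 409 CPM (-1.42, -1.64 to -1.20) and Egr1 at 337, 135, 119 and 123 CPM (-1.32, -1.60 to -1.04). The 12-week-WT library was the highest for both genes, and 12-week-DB was the lowest for Jun but not for Egr1. Without the MHC class II-high barcodes 17 of 22 were lower and 1, Egr1, was past 2-fold, where 41.4% of all ranked genes were lower. In the Cd4 part 19 of 22 were lower and none was past 2-fold (median -0.38 against 0.05 over all ranked genes). In the Cd8b1 part 22 of 22 were lower and 7 were past 2-fold (median -0.79 against 0.08). Egr1 was also lower in gamma-delta T cells (-1.24) and C1q-high barcodes (-1.12). Of 7 ranked naive and circulating genes 6 were lower in 12-week-DB (median -0.50), and 2 were past 2-fold, Ccr7 (178, 85.9, 91.3 and 70.0 CPM, -1.05) and Lef1 (144, 69.8, 61.1 and 68.2 CPM, -1.04). Without the MHC class II-high barcodes both were under 2-fold (-0.97 and -0.95). Ccr7 and Lef1 reached the 100 CPM floor at 12 weeks in WT alone, so the filter favoured a fall for them. In the Cd4 part alone 4 of 6 ranked members were lower, and in the Cd8b1 part 5 of 8, with 1 past 2-fold in each. Of all ranked genes of the Cd4 part 44.8% were lower. For the Cd8b1 part that share was not computed, and the median over all its ranked genes was 0.08. Past 2-fold lower were 18 of 1712 genes there and 40 of 1545 in the Cd8b1 part. Among all selected cells Socs3 (-1.29) and Dusp10 (-1.15) were lower as well.

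Higher in 12-week-DB were Ifngr1, the ligand-binding chain of the interferon-gamma receptor, at 145, 302, 353 and 441 CPM (1.06, 0.75 to 1.38), the proteasome subunit Psma4 at 41.4, 117, 120 and 120 CPM (1.50, 0.94 to 2.11) and Timm10b at 48.3, 116, 85.7 and 99.7 CPM (1.26, 0.73 to 1.83). For all 3 the 12-week-WT library, with 90 cells, was the low one. At 12 weeks Psma4, Timm10b and also Fxyd2 reached the 100 CPM floor in DB alone, so the filter favoured a rise for them. Fxyd2, a modulator of the sodium pump, was high in 12-week-DB, at 20.7, 209, 23.1 and 30.9 CPM (3.33, 2.59 to 4.19) and in 14.4, 42.4, 11.1 and 17.7% of cells, and it was higher in gamma-delta cells too (2.32). Macrophage transcripts were found in the selected cells as well. Whether the Fxyd2 UMIs came from the T cells, from second cells in the droplet or from free RNA was not tested. Several other large changes at this age rested on few cells: 93.8% of the Cma1 and 93.6% of the Mcpt2 UMIs of 12-week-WT and 77.3% of its Il10 UMIs were in 1 cell each, as were 85.0% of the S100a9, 48.1% of the Lpl and 46.1% of the Fn1 UMIs of 12-week-DB. The lysozyme gene Lyz1 was at 13.8 and 108 CPM at 12 weeks (2.97), with 27.1% of its 12-week-DB UMIs in 1 cell, and its ratio was 1.39 without the MHC class II-high barcodes. The chemokine Cxcl2 (1.70, with 33.0% in 1 cell) was at 1.22 without them, and Ecm1 (1.32, with 19.3% in 1 cell) turned to -0.48. Among genes lower in 12-week-DB, Trf (-1.60) and Tnfsf9 (-1.29) had 42.9 and 45.5% of their 12-week-WT UMIs in 1 cell. Without those barcodes they were at -0.061 and -0.10, while the immunoglobulin gene Ighm was at -1.10 with and -1.08 without them.

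The metallothioneins Mt1 and Mt2 encode small zinc- and copper-binding proteins induced by metals, glucocorticoids and oxidative stress. Mt1 was at 52.5, 138, 75.3 and 296 CPM, and Mt2 at 12.4, 35.6, 23.9 and 86.0 CPM. Both were higher in DB at each age. The log2 ratio of Mt1 was 1.40 (0.89 to 1.94) at 12 weeks and 1.97 (1.73 to 2.22) at 21 weeks, and that of Mt2 was 1.52 (0.48 to 2.73) and 1.85 (1.42 to 2.30). At 12 weeks 20.2% of the Mt1 UMIs of 12-week-DB lay in 1 cell, the share of cells with a UMI was 23.3 and 23.04%, and the ratio was 0.94 without the MHC class II-high barcodes. At 21 weeks Mt1 was detected in 24.9 and 42.8% of cells. Gamma-delta T cells showed the 21-week difference (2.19) but the opposite direction at 12 weeks (-1.15), and C1q-high barcodes were level at 12 weeks (0.05) and higher at 21 (2.56). Foxp3-positive cells had Mt1 at 106, 254, 130 and 1226 CPM, higher in DB at both ages. Both genes were lower in the Cd4 part than in Foxp3-positive Cd4 cells (Mt1 -1.24 ± 0.20, edgeR adjusted p = 0.000533; Mt2 -1.44 ± 0.28, edgeR adjusted p = 0.00297).

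Metallothionein promoters are known for metal response elements, the binding sites of the zinc-sensing factor MTF-1. The promoters are shown because Mt1 was the gene past 2-fold at both ages among all selected cells, though the filter favoured a rise for it. Each runs from 250 bases before to 50 after the transcription start, from RefSeq on GRCm38.p6, in lower case with the core letters TGCACNC or TGCGCNC of that element, on either strand, in capitals. Mt1 lies at chr8:94178839-94179138 (+) and Mt2 at chr8:94172368-94172667 (+).
Mt1: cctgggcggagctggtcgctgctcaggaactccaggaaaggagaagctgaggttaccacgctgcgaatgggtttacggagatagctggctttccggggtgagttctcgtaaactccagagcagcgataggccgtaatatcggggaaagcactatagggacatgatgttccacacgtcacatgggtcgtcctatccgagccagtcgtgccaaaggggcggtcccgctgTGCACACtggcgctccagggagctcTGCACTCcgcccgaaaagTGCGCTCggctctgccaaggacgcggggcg
Mt2: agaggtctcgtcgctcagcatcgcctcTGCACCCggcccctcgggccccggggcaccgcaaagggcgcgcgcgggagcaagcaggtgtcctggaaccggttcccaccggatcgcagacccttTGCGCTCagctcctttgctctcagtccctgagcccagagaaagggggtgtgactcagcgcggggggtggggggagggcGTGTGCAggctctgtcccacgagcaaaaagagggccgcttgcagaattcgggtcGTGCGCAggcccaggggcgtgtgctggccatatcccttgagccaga
The Mt1 promoter holds 3 matches, all on the printed strand, and the Mt2 promoter 4, of which 2 are on the other strand. Every Mt1 match but the first, and the last Mt2 match, lie in the 50 bases after the transcription start. At least 1 match occurs in 25.7% of 32851 promoters of the same length, at least 3 in 1.97% and at least 4 in 0.517%. A match in letters is not a measured binding site.

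**Figure D5:**
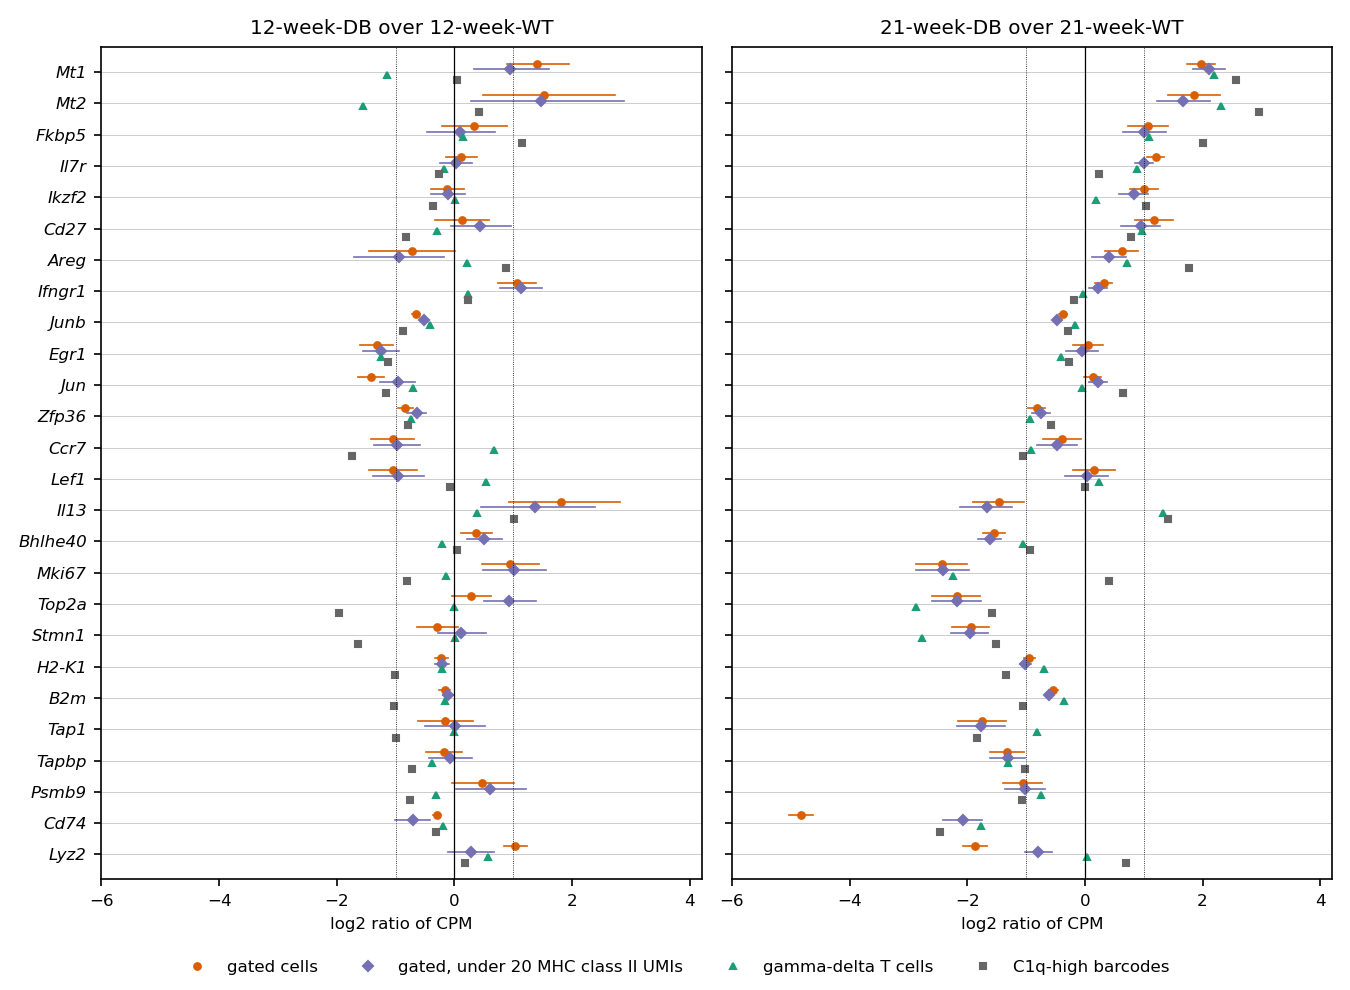
Log2 ratio of CPM, DB over WT, at 12 weeks (left) and 21 weeks (right) for 26 genes described in the text. Symbols stand for all selected cells, those with under 20 MHC class II UMIs, gamma-delta T cells and C1q-high barcodes; horizontal lines are exact 95% intervals for both sets of selected cells (counting error only) and dotted lines mark 2-fold. Mt1 lies to the right at both ages among the selected cells, and proliferation and MHC class I genes lie to the left at 21 weeks. Cd74 at 21 weeks moves from -4.82 to -2.07 when the MHC class II-high barcodes, which its own level helps to define, are left out.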

How the data were processed

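CD45+ hindpaw cells were profiled with 10x Genomics 3' v3 chemistry, 1 library for each of 4 conditions. Per the file headers and the labels, the authors deposited UMI counts from Cell Ranger 5.0.0 or 6.0.0 on mm10, filtered to cell barcodes. The study's removal of free RNA is not in these counts. Barcodes with 200 or more genes and no more than 10% mitochondrial UMIs entered, and cells were chosen by the 7 criteria. No doublets were removed, and Scrublet (scanpy 1.11.5) was an alternative. Conditions were compared as CPM of summed UMIs, with exact Poisson, Clopper-Pearson (shares) or conditional binomial (ratios) 95% intervals and no test. Populations within libraries were tested with edgeR 4.0.16 (R 4.3.3, TMM, filterByExpr, quasi-likelihood, library as block) on 8 sums, after a check on simulated data. The block pairs sums of the same library. DESeq2 1.42.0, other filters, scalings and cell criteria, thinning to 2000 UMIs and leaving out libraries were alternatives. Named genes are the 10 largest ranked rises and falls of each comparison (for tests, called, moved one way in every library and averaging 50 CPM or more) and members of 27 gene lists. Some named genes and part of the full strain name are not reported here. Further genes, Trbv19 and the cytokines among them, were named after their values were seen. The members and lists were chosen with earlier results of these data known.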

Additional observations from a re-analysis of the deposited data

Results flagged for a closer look

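The log2 ratio of the share of Foxp3-negative alpha-beta T cells, DB over WT, was 0.77 at 12 weeks and -0.75 at 21 weeks, in opposite directions with 1 library on each side, and the difference between ages was not tested.

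Of the named genes ranked at both ages and past 2-fold at either, 9 had intervals on opposite sides of 0 at 12 and 21 weeks. Dusp10 was at -1.15 at 12 weeks and 0.89 at 21 weeks, and Bhlhe40 at 0.37 and -1.54. The other 7 are typical of myeloid or antigen-presenting cells: Lyz2 (1.03 and -1.86), Alox5ap (0.83 and -2.73), Tgfbi (0.97 and -3.22), Tyrobp (0.69 and -2.56), Fcer1g (0.68 and -1.88), H2-DMa (0.68 and -3.17) and Ctsb (0.51 and -1.36). None of these differences was tested, and the MHC class II-high barcodes numbered 7 and 17 at 12 weeks and 30 and 2 at 21 weeks in WT and DB.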

How the results depend on the processing

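With 1 library for each condition, no setting gives the spread between mice. The main values were recomputed under the other settings, and moves are given below with no test of their cause. In the order of libraries used above, the share of selected cells was 0.549, 1.11, 1.77 and 0.912% after thinning to 2000 UMIs and 0.911, 1.86, 2.94 and 2.11% with no C1q UMI allowed. With at least 2 Trac UMIs it was 2.26, 3.48 and 1.83% in the last 3 libraries. The Cd8b1 share of 21-week-DB was 19.7% after thinning, and the 21-week log2 ratio of shares -0.48 with no C1q UMI.

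A floor of 50 CPM gave 50 genes higher and 23 lower past 2-fold at 12 weeks and 79 and 183 at 21 weeks. At 12 weeks 25 were higher in the Cd4 part alone, 10 after removal of Scrublet doublets, 9 without the MHC class II-high barcodes, 4 with 50 UMIs required in each library (alternatives chosen after seeing the data) and 29 with no C1q UMI, where 48 were lower. Ecm1 (-0.018), Fn1 (-0.51) and Lpl (-0.044) changed direction with Scrublet, Ecm1 (-0.48) and Lpl (-0.78) without the MHC class II-high barcodes, and Tnfsf9 (0.48) in the Cd4 part alone.

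With no library block, edgeR called 60 genes higher and 49 lower in the Cd8b1 part, 37 and 58 in the Cd4 part against Foxp3-positive cells, and 388 and 427 against gamma-delta cells. Thinning gave 54 and 31, 1 and 17, and 209 and 292. DESeq2 called 96 lower in the Cd8b1 part, and 87 higher and 113 lower against Foxp3-positive cells. Without a filter on low counts 357 were lower in the Cd8b1 part and 368 higher against Foxp3-positive cells, and selection at 2 UMIs gave 58 and 63 there. Leaving out 1 library gave 182 to 273 higher and 94 to 180 lower in the Cd8b1 part, the fewest without 21-week-WT and next 189 and 112 without 21-week-DB. It gave 105 to 165 and 156 to 208 against Foxp3-positive cells and 607 to 860 and 618 to 763 against gamma-delta cells, with 105 and 607 higher without 12-week-DB.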
